A study of Mus musculus with 12 samples.

Results

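The 10 genes examined here encode proteins of the lipid droplet and the lipases that act on it: Cidea, Cideb, Cidec, Plin2, Plin4, Plin5, Pnpla2, G0s2, Hilpda and Fitm1. They are 10 of the 55487 genes in the count table. They were chosen from measured values, since Cidec, the gene the set was built around, fell in the liver of Mettl5 knockout mice, and its relatives and partners on the droplet were then followed in all 4 groups of samples. The difference between genotypes in liver is therefore given as a description, without a test, whereas the brain libraries and the differences between tissues were tested. Total RNA was sequenced from liver and brain of 6 mice, 3 of them knockout (KO, mice A, C and F) and 3 controls (WT, mice B, D and E), with 1 library for each organ of a mouse. The KO mice lacked Mettl5, the gene of an 18S rRNA adenosine methyltransferase, in the whole body: floxed exon 2 was deleted by a Cre transgene driven by the CMV promoter, in mice made from hybrid ES cells and backcrossed to B6. Controls carry the label WT, although the study's own text speaks of heterozygous control mice for its RNA sequencing, so their genotype is given here only as labelled. The study used mice of both sexes, aged 4 weeks at the youngest and 6 months at the oldest, and the labels tie neither sex nor age nor litter to a library. It gives its mouse RNA sequencing as 3 pairs, which the labels do not identify, so the genotypes were compared here without pairing.

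Lipid droplets store triglycerides and cholesterol esters behind a single layer of phospholipids, and hepatocytes fill and empty them with feeding and fasting. CIDE proteins sit where droplets touch and let lipid pass from the smaller droplet to the larger, perilipins coat the surface and control access of lipases, and adipose triglyceride lipase starts the release of fatty acids. In brain, droplets have been described in glia and in ependymal cells.

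Promoter sequences, from 250 bases before to 50 bases after the start of a transcript, were taken from RefSeq (GRCm38.p6) for 9 of the 10 genes, which gave 12 promoters. Those of Cidec and Plin4 are shown because all KO liver libraries lay below all WT liver libraries for these genes, those of Plin5 and Plin2 because they code for relatives of Plin4 whose liver libraries overlapped. The letters AGGTCA, the core site of nuclear receptors such as the peroxisome proliferator-activated receptors, and CACGTG, an E-box, were searched on both strands and stand in capitals; AGGTCA on the opposite strand reads TGACCT.
Cidec, first start, chr6:113435711-113436010, minus strand: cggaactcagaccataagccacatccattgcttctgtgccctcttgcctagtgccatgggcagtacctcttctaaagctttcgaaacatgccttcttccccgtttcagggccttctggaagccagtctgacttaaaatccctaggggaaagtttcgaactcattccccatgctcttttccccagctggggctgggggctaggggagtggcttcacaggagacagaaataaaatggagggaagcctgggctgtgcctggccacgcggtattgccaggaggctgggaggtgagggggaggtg
Cidec, second start, chr6:113434715-113435014, minus strand: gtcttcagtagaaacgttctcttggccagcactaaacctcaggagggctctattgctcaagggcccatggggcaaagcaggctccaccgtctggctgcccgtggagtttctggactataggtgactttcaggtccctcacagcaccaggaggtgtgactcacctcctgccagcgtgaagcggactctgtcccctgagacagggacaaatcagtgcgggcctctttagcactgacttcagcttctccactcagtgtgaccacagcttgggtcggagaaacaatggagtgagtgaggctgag
Plin4, chr17:56109733-56110032, minus strand: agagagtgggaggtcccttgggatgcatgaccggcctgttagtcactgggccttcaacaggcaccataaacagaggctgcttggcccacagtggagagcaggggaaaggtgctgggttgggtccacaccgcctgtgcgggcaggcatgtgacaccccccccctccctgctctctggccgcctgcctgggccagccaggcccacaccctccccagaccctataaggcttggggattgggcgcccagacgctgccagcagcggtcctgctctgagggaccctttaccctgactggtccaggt
Plin5, first start, chr17:56117499-56117798, minus strand: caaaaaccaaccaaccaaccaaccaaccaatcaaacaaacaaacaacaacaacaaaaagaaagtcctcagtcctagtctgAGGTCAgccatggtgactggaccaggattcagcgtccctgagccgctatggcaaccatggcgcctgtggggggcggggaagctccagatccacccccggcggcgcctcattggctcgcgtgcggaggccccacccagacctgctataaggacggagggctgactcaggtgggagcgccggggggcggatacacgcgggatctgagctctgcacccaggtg
Plin2, chr4:86670010-86670309, minus strand: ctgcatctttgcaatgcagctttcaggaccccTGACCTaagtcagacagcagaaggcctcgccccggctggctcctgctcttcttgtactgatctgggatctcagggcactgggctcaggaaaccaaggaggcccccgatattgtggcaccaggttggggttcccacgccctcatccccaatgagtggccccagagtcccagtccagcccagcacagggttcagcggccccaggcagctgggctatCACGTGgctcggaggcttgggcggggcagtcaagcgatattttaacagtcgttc

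AGGTCA or its reverse complement was found in 3 of the 12 promoters, at position 33 in Plin2 and in both promoters of Plin5, and in 16.3% of all 32851 promoters of this length. CACGTG was found in Plin2 alone among these genes and in 7.15% of all promoters. The shorter ACGTG, the core of the hypoxia response element, which lies within CACGTG, was found in 2 of the 12, in Plin2 and at the second start of Hilpda, against 19.6% of all promoters. Neither AGGTCA nor CACGTG stands in the windows shown for Cidec or Plin4, which says only that these letters are not in these windows.

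Sequencing depth ran between 16145754 and 21623180 counts per library in liver, and between 14403309 and 18365114 in brain. Mettl5 itself had 3.64 to 4.07 normalised read counts (CPM) in KO liver against 8.13 to 14.9 in WT liver, and 3.33 to 3.96 in KO brain against 5.02 to 9.09 in WT brain, counted over all of its exons. Summed levels of 10 hepatocyte markers ran from 74608 to 93242 CPM in liver and stayed at or under 52.6 CPM in brain, and 7 neuron markers from 3175 to 3747 CPM in brain and at or under 16.8 CPM in liver. The share of counts on mitochondrial rRNA moved with genotype, from 10.7% to 16.9% in WT liver and 7.36% to 8.66% in KO liver, and from 7.63% to 17.7% in WT brain and 21.4% to 31.6% in KO brain. Libraries of mice E (WT) and F (KO) held at most 20 counts on 4 Y-linked genes, those of the other 4 mice at least 2112. In bulk tissue, fewer cells of a type and less RNA per cell cannot be told apart.

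**Figure D1:**
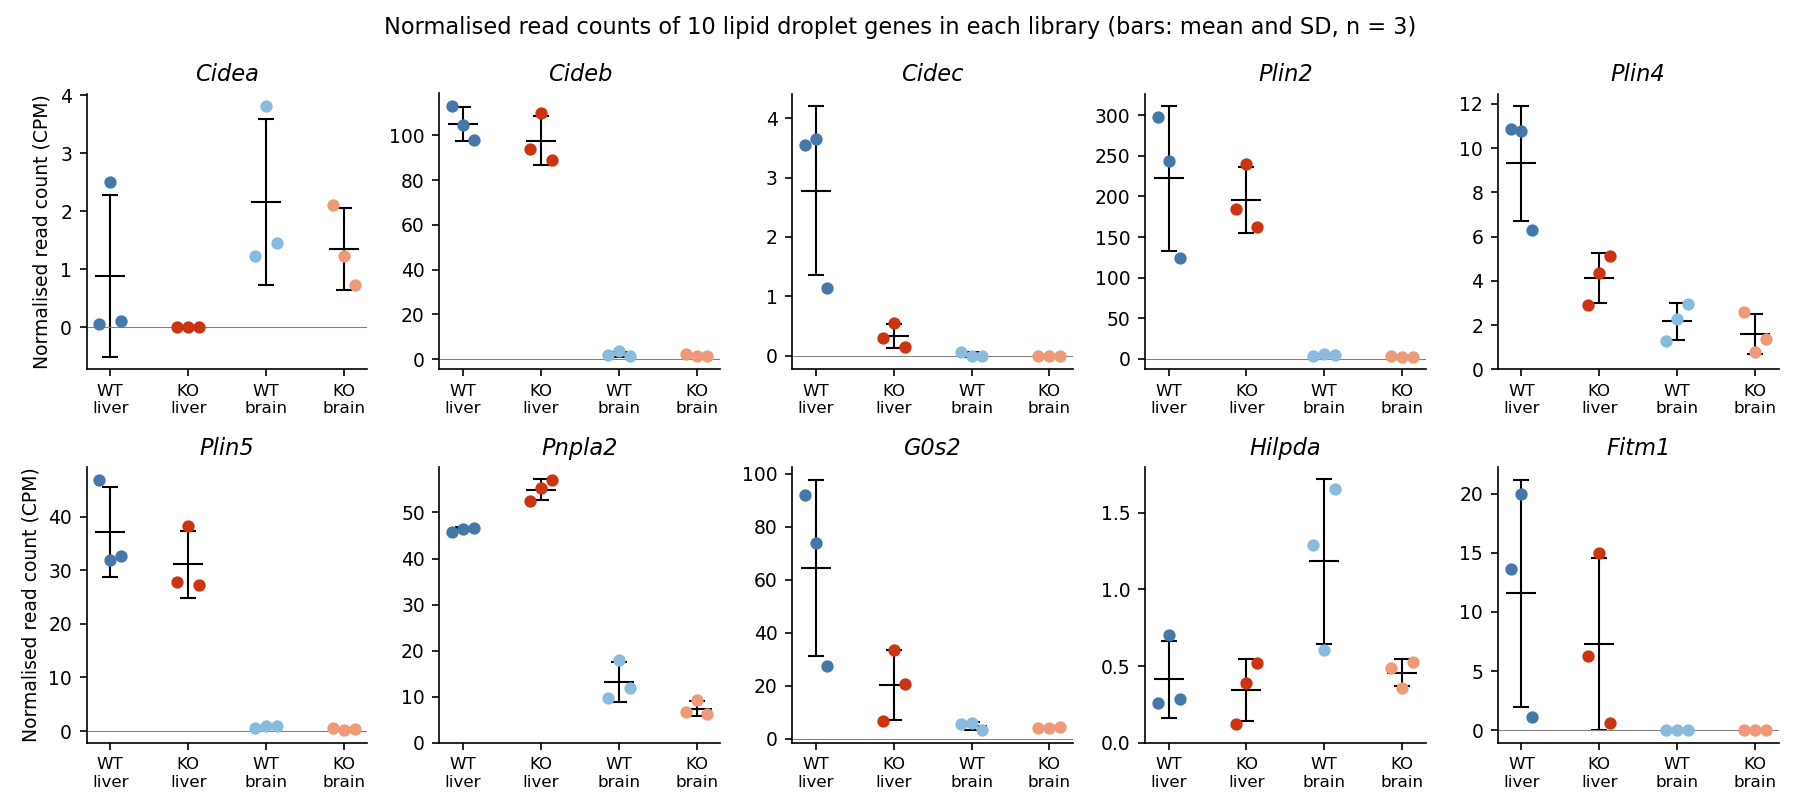
Normalised read counts (CPM, vertical axis from 0 for each gene) of the 10 genes in WT liver, KO liver, WT brain and KO brain, with 1 point per library and the mean and SD of 3 libraries in black. Cidec in KO liver stayed at or under 0.560 CPM while WT liver held 1.14 to 3.65 CPM, and Fitm1 was at 0 in every brain library.

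The first question was how the droplet genes compare between KO and WT liver. Cidec and Plin4 were lower in all 3 KO livers than in all 3 WT livers, Pnpla2 was higher in all 3, and the remaining genes above the count filter overlapped. That is 2 of 8 genes lower and 1 of 8 higher without overlap, beside 6.44% and 6.5% of all 14075 genes tested in liver, and nothing is read from these counts because the same libraries chose the set. At an adjusted p under 0.1, 0.0% of all genes were called between genotypes in liver by edgeR's quasi-likelihood test, and 7.33% had an unadjusted p under 0.05, whereas without the count filter edgeR called 443 of 27130 genes and DESeq2 171 of the 27088 with a p-value. Of the 8 genes above the filter, 7 had a log2 fold change below 0.

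Cidec (ENSMUSG00000030278.11; chr6:113424634-113435760, minus strand, mm10), the CIDE protein of large droplets in adipocytes and fatty liver, had 3.55, 3.65 and 1.14 CPM in WT livers B, D and E and 0.301, 0.560 and 0.156 CPM in KO livers A, C and F. These values come from 69, 57 and 20 counts against 5, 10 and 3 counts. The highest KO liver lay below the lowest WT liver, WT liver E stood apart from the other WT livers, and the log2 fold change was -3.02 (SE 0.60, n = 3 per group). It ran from -3.59 to -2.61 over all alternatives, including the omission of each library.

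Cideb (ENSMUSG00000022219.10; chr14:55754050-55758458, minus strand), the CIDE protein of hepatocytes that also loads lipid onto very low density lipoprotein, had 113, 105 and 97.8 CPM in WT livers B, D and E and 93.7, 110 and 88.9 CPM in KO livers A, C and F. The groups overlapped, and the log2 fold change was -0.11 (SE 0.14). Cidea (ENSMUSG00000024526.9, chromosome 18), the CIDE protein of brown fat, had 0 counts in each KO liver and 1, 39 and 2 counts in WT livers B, D and E, so that WT liver D alone carried it and it did not pass the count filter.

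Per kilobase of exon, Cideb made up 96.9% ± 2.33 (SD, n = 3) of the summed CIDE level in WT liver and 99.7% ± 0.133 in KO liver. Cidec accounted for 2.0% ± 0.943 in WT liver and 0.268% ± 0.133 in KO liver. By transcript level per length, the CIDE family of the liver was thus almost wholly Cideb in both genotypes, and the gene with the large fold difference was a minor member.

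Among the coat proteins, Plin4 (ENSMUSG00000002831.14; chr17:56100591-56109803, minus strand), a perilipin with long amphipathic repeats, had 10.9, 10.8 and 6.30 CPM in WT livers B, D and E against 2.89, 4.37 and 5.11 CPM in KO livers A, C and F. All KO livers lay below all WT livers, with a log2 fold change of -1.17 (SE 0.29), although the gap between KO liver F and WT liver E was small beside the spread within each genotype. Plin5 (ENSMUSG00000011305.11; chr17:56111601-56117596, minus strand), the perilipin of oxidative tissues, which ties droplets to mitochondria, had 46.9, 31.9 and 32.6 CPM in WT liver and 27.8, 38.3 and 27.2 CPM in KO liver. Its groups overlapped at a log2 fold change of -0.26 (SE 0.20), while its gene lies 1797 bases from that of Plin4.

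Plin2 (ENSMUSG00000028494.12; chr4:86648386-86670060, minus strand), the most abundant coat protein of hepatocyte droplets, had 298, 244 and 124 CPM in WT livers B, D and E and 185, 241 and 162 CPM in KO livers A, C and F. WT livers B and E were the highest and the lowest of all 6, so the KO values fell inside the WT range. The log2 fold change of -0.18 (SE 0.31) changed sign to 0.08 without WT liver B and was -0.47 without WT liver E. Of the summed level of Plin2, Plin3, Plin4 and Plin5 per kilobase, Plin2 held 67.1% ± 7.91 (SD, n = 3) in WT liver and 70.6% ± 1.90 in KO liver, and Plin4 held 1.61% ± 0.173 and 0.845% ± 0.309.

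**Figure D2:**
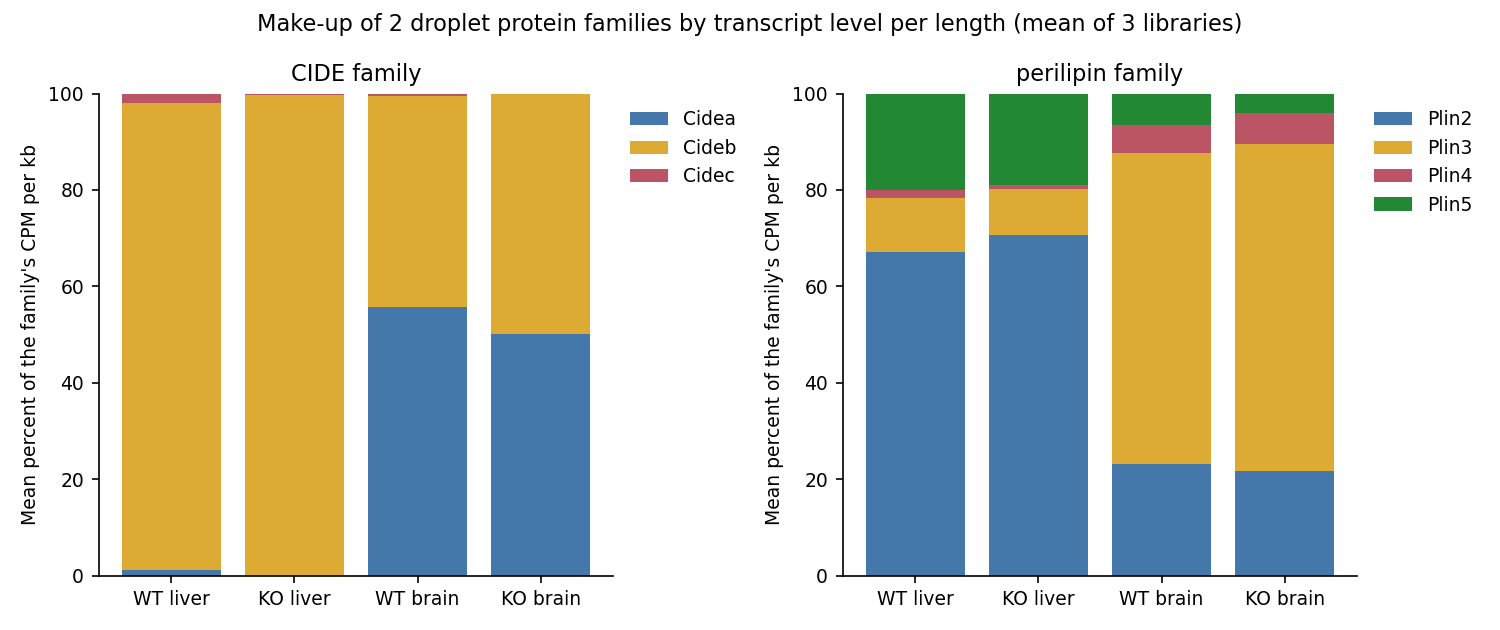
Mean share, in percent of the summed CPM per kilobase, of each CIDE gene (left) and of 4 perilipin genes (right) in WT liver, KO liver, WT brain and KO brain (stacked bars, 3 libraries each, no error bars drawn). Cideb held 96.9% and 99.7% of the CIDE level in the 2 liver groups, and Plin3 held 64.5% and 67.7% of the perilipin level in brain, where Plin2 led in liver.

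Pnpla2 (ENSMUSG00000025509.15; chr7:141455198-141460743, plus strand) encodes adipose triglyceride lipase, which makes the first cut of a triglyceride. It had 45.9, 46.5 and 46.7 CPM in WT livers B, D and E and 52.5, 55.4 and 57.1 CPM in KO livers A, C and F. All KO livers lay above all WT livers, the WT livers were close together, and the log2 fold change was 0.25 (SE 0.11), 0.22 to 0.28 over all alternatives.

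G0s2 (ENSMUSG00000009633.3; chr1:193272161-193273217, minus strand), a protein that binds and inhibits this lipase, had 92.0, 73.9 and 27.5 CPM in WT livers B, D and E and 6.81, 33.3 and 20.5 CPM in KO livers A, C and F. KO liver C lay above WT liver E, so the groups overlapped in 1 pair, and the log2 fold change was -1.67 (SE 0.75). Per length, the level of G0s2 was 6.95, 5.52 and 2.04 times that of Pnpla2 in the WT livers and 0.449, 2.09 and 1.24 times in the KO livers. The KO liver with the highest ratio, C, just exceeded WT liver E.

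Hilpda (ENSMUSG00000043421.8; chr6:29272488-29275446, plus strand), a small hypoxia-induced inhibitor of the same lipase, had 5, 11 and 5 counts in WT liver and 2, 7 and 10 counts in KO liver. These are 0.257 to 0.704 CPM and 0.120 to 0.521 CPM, overlapping and below the filter. Fitm1 (ENSMUSG00000022215.6; chr14:55575617-55576954, plus strand), a protein of the endoplasmic reticulum that partitions triglyceride into nascent droplets and is best known from muscle, had 13.6, 20.0 and 1.08 CPM in WT livers B, D and E and 6.26, 15.0 and 0.626 CPM in KO livers A, C and F. Both groups spanned a wide range at n = 3, with the low values in mice E and F, and the log2 fold change of -0.66 (SE 1.41) ran from -1.77 to -0.02 as single libraries were left out.

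Cell types other than hepatocytes could bring droplet genes into a liver library, so their markers were read beside these values. The summed level of 12 white adipocyte markers was 23.2 to 24.9 CPM in KO liver and 25.7 to 31.6 CPM in WT liver, without overlap, and 9 of the 12 were lower in KO by their means. Lipe, Pparg and Fabp4, which liver also expresses, made up most of that sum, and Trarg1, Acvr1c, Adig and Slc7a10 stayed low. Adipoq, Plin1 and Lep were at 0 in every liver but WT liver E, where Adipoq had 1.59 CPM, Plin1 0.965 CPM and Retn 0.908 CPM. In WT livers B and D, Retn was at 0 as well. Cfd, a secreted protein of adipocytes, had 0.309, 6.59 and 2.73 CPM in WT livers B, D and E and 0, 0.280 and 0 CPM in KO livers A, C and F, and the part of adipocytes in the Cidea and Cidec values was not tested.

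Of 16 marker lists, the sums of 14 overlapped between genotypes in liver, the 2 others being the adipocyte list and 8 skeletal muscle markers. The muscle markers summed to 0.602 to 1.01 CPM in KO liver and 0.206 to 0.512 CPM in WT liver, nearly all of it Mylpf, with Acta1, Tnnt3 and Tnnc2 at 0 in all livers and Ckm, Myh1, Myh4 and Mb at or near 0. Their part in the Fitm1 values was not tested. The 7 Kupffer cell markers, of the resident macrophages of liver, were all lower in KO by their means, although their sums overlapped at 165 to 322 CPM in KO and 232 to 377 CPM in WT liver, with KO liver F the highest KO library. Of 7 markers of hepatic stellate cells, 6 were higher in KO by their means and 1 was lower. Their sums overlapped too, at 326 to 436 CPM in KO and 295 to 342 CPM in WT liver. The part of Kupffer and stellate cells in the droplet gene values was not tested. Of 5 brown adipocyte markers, Ucp1, the defining gene of brown fat, had 0 counts in every library, and Zic1 and Otop1 stayed near 0 in liver. Cox7a1 had 1.13, 1.02 and 0.965 CPM in WT livers B, D and E and 0.361, 0.504 and 0.313 CPM in KO livers A, C and F. Its genotypes did not overlap. Elovl3 had 352, 174 and 2.84 CPM in the same WT livers and 313, 476 and 3.81 CPM in the same KO livers. The part of brown adipocytes in the Cidea values was not tested.

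**Figure D3:**
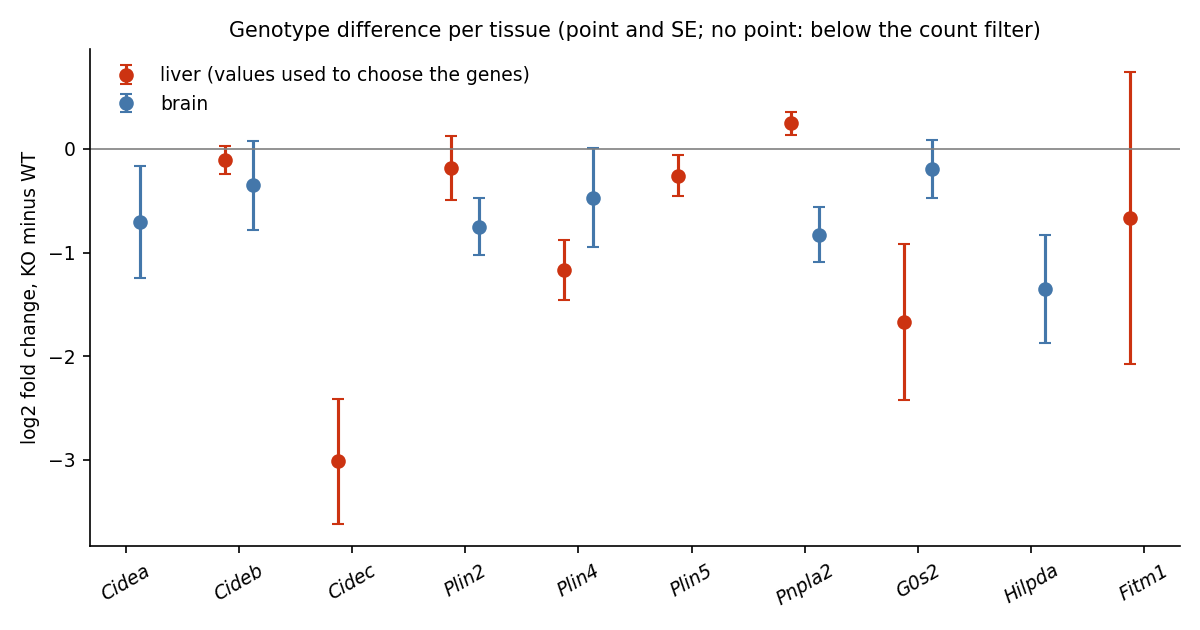
The log2 fold change of KO minus WT (vertical axis, points with SE) of each gene above the count filter in liver (red) and brain (blue). Cidec at -3.02 lies lowest in liver, all 7 genes with a brain value lie below 0, and Pnpla2 is at 0.25 in liver and -0.83 in brain.

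In brain, a contrast that the rule of choice does not name, the same comparison of KO with WT was tested. None of the 7 genes above the filter was called (adjusted p under 0.1, edgeR), beside 0.064% of all 17188 genes tested. Hilpda, with 5 to 8 counts in KO brain and 12 to 33 in WT brain, passed the filter through WT brain alone. It is therefore given without a test. Among the other genes above the filter, Plin2 and Pnpla2 had an unadjusted p under 0.05, against 11.0% of all genes. For both, the 3 KO brains lay below the 3 WT brains, against 7.94% of all genes. All 7, Hilpda among them, had a log2 fold change below 0, where the median of all genes was -0.0016, and DESeq2 called none of them either.

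Pnpla2 had 9.67, 18.0 and 11.8 CPM in WT brains B, D and E and 6.58, 9.35 and 6.33 CPM in KO brains A, C and F. Every KO brain was below every WT brain, with a log2 fold change of -0.83 (SE 0.26, adjusted p = 0.367). In liver the same gene was higher in every KO library. Without a filter on low counts the brain value was called (log2 fold change -0.85, adjusted p = 0.0121), and the alternatives together gave adjusted p-values between 0.0121 and 0.934.

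Plin2 had 3.80, 6.12 and 4.42 CPM in WT brains B, D and E and 3.25, 2.66 and 2.64 CPM in KO brains A, C and F, a log2 fold change of -0.75 (SE 0.27, adjusted p = 0.395). Hilpda had 1.29, 0.602 and 1.66 CPM in WT brain and 0.488, 0.360 and 0.527 CPM in KO brain, from 12 to 33 and 5 to 8 counts. Its log2 fold change was -1.35 (SE 0.52), given without a test since it passed the filter through WT brain alone. For both genes the genotypes did not overlap, and Plin2 did not pass the test. Plin5, below the filter, also lay lower in all KO brains, with 6, 2 and 5 counts in KO brains A, C and F and 9, 17 and 18 counts in WT brains B, D and E.

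The other genes overlapped between genotypes in brain. Cidea had 1.22, 3.81 and 1.46 CPM in WT brains B, D and E and 2.11, 1.22 and 0.725 CPM in KO brains A, C and F, with a log2 fold change of -0.70 (SE 0.54, adjusted p = 0.621) that was -0.02 without WT brain D. Cideb likewise had its highest level in WT brain D, 3.41 CPM, against 1.29 to 2.28 CPM in KO brain, and its log2 fold change of -0.35 (SE 0.43, adjusted p = 0.753) changed to 0.16 without that library. WT brain D was the highest brain library for Cidea, Cideb, Plin2, Pnpla2 and G0s2.

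Plin4 had 1.29 to 2.96 CPM in WT brain and 0.791 to 2.60 CPM in KO brain (log2 fold change -0.47, SE 0.48, adjusted p = 0.699). G0s2 had 3.22 to 5.97 CPM in WT brain and 4.15 to 4.61 CPM in KO brain (log2 fold change -0.20, SE 0.28, adjusted p = 0.791). Cidec had 1 count in WT brain B and 0 in the other brain libraries, and Fitm1 had 0 counts in all of them, so no fold is given. At these depths 3 counts stand for 0.130 to 0.172 CPM on average (scaled over all 12 libraries), under which neither transcript could be seen.

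Markers of brain regions moved with genotype in the same libraries. The 8 olfactory bulb markers summed to 45.4 to 68.0 CPM in KO brain and 7.28 to 17.2 CPM in WT brain, and 8 of 8 were higher by their means, Omp, S100a5, Cdhr1, Doc2g, Sp8, Tbx21, Eomes and Th. The 9 cerebellum markers (Pcp2, Calb1, Cbln1, Cbln3, Gabra6, Zic1, Zic2, Pvalb, Car8) summed to 264 to 707 CPM in KO brain and 1054 to 1641 CPM in WT brain, and 9 of 9 were lower. The 7 choroid plexus markers, led by Ttr at 97.4 to 161 CPM in KO and 196 to 345 CPM in WT brain and followed by Kl, Clic6, Folr1, Otx2, Slc4a5 and Kcnj13, summed to 115 to 184 CPM in KO brain and 230 to 394 CPM in WT brain, with 7 of 7 lower. The 5 brown fat markers also did not overlap, at 45.8 to 120 CPM in KO and 156 to 260 CPM in WT brain, nearly all of it Zic1, a cerebellar gene too, with Cox7a1, Elovl3 and Otop1 near 0. The other 12 lists overlapped, among them neurons, astrocytes, oligodendrocytes, microglia, endothelium and ependyma. The part of these regions, and of the mitochondrial rRNA share, in the brain values of Pnpla2, Plin2, Hilpda and Plin5 was not tested.

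The 10 genes were then compared between the organs of the same genotype. Only Cideb, G0s2, Plin2, Plin4 and Pnpla2 were above the count filter within each organ, and the counts cover these 5. In WT mice 5 of 5 were called higher in liver, beside 40.6% of the 12564 genes above the filter in both organs, of which 31.9% were called lower. In KO mice 5 of 5 were called higher, beside 41.6% of 12542 such genes, of which 32.7% were called lower. Over every gene tested, including those above the filter in 1 organ alone, 35.4% of 17694 were called higher and 42.9% lower in WT mice, and 36.2% and 44.1% of 17396 in KO mice. The others passed the filter between organs, if at all, through the organ where they are high, and Cidec was used to choose the set.

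Plin2, Cideb and Plin5 differed most among genes seen in both organs, with log2 fold changes of liver over brain of 6.21 (SE 0.38), 6.28 (SE 0.32) and 6.22 (SE 0.27) in WT and 6.80 (SE 0.23), 6.55 (SE 0.24) and 7.28 (SE 0.33) in KO mice. The adjusted p was at most 1.38e-07 for Plin2 and Cideb (edgeR), and Plin5, with 2 to 18 counts per brain library, is given without a test. Liver libraries held 124 to 298 CPM of Plin2 where brain libraries held 2.64 to 6.12 CPM, with no overlap.

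G0s2 was higher in liver by a log2 fold change of 4.39 (SE 0.48, adjusted p = 5.05e-05) in WT and 2.92 (SE 0.51, adjusted p = 0.000748) in KO mice. Pnpla2 was higher by 2.49 (SE 0.22, adjusted p = 2.38e-06) and 3.59 (SE 0.20, adjusted p = 9.33e-08), and Plin4 by 2.76 (SE 0.35, adjusted p = 3.49e-05) and 2.08 (SE 0.43, adjusted p = 0.00142). The lipase thus had a wider liver to brain gap in KO than in WT mice and its inhibitor G0s2 a narrower one, and these gaps share their libraries with the genotype comparisons above, so their difference was not tested.

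Fitm1 was at least 112-fold higher in liver than in brain in WT mice and at least 54.1-fold higher in KO mice, taking 3 counts in each brain library as the floor. These rest on unequal livers: the WT bound was 71.9 without WT liver D and the KO bound 25.6 without KO liver C. On the same floor, Cidec was at least 26.9-fold higher in liver in WT and at least 2.52-fold higher in KO mice. These bounds are given without a test.

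Cidea and Hilpda did not follow this order. Cidea was at least 4.93-fold lower in KO liver than in KO brain, taking 3 counts in each KO liver as the floor and without a test. Cidea and Hilpda passed the filter between WT organs through brain alone, so their WT values are given without a test. For Cidea in WT mice the log2 fold change was -0.67 (SE 1.06), which became -3.97 without WT liver D, the library that held 39 of its counts, and 0.014 without WT brain D. Hilpda had a log2 fold change of liver over brain of -0.85 in WT mice (SE 0.57), and it was below the filter in KO mice.

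By level per kilobase of exon (mean CPM per kb, n = 3), the order in WT liver was G0s2 at 74.0, Cideb at 70.7 and Plin2 at 63.3, then Plin5 at 17.8, Pnpla2 at 15.4 and Fitm1 at 11.9, then Cidec at 1.50, Plin4 at 1.47, Cidea at 0.796 and Hilpda at 0.376. Only Plin2 and Plin5 did not overlap among neighbours in this order. In KO liver Cideb at 65.5 and Plin2 at 55.7 came first, apart from G0s2 at 23.2, which overlapped with Pnpla2 at 18.2, and Cidec came second to last at 0.183. In WT brain G0s2 at 5.69 and Pnpla2 at 4.35 led, overlapping, followed by Cidea at 1.94 and Cideb at 1.44. Cidea was 55.8% ± 5.49 (SD, n = 3) of the CIDE level in WT brain and 50.0% ± 9.58 in KO brain, where it was 1.07% ± 1.67 in WT liver.

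Within each genotype, 4 of the 8 genes above the filter in liver, Fitm1, Cidec, Plin2 and Cideb, were lowest in mice E and F, the ones without Y-linked transcripts, beside 21.9% of 14057 genes tested in liver. This split of 4 livers with and 2 without Y-linked transcripts was chosen after the values were seen, so its sizes are given as a description, without a test. With genotype in the model, the log2 fold change of libraries with over libraries without them was 4.00 for Fitm1, 1.60 for Cidec and 0.74 for Plin2. It was also 0.74 for G0s2, and 0.28 for Plin5, 0.17 for Cideb, 0.15 for Plin4 and -0.050 for Pnpla2. For Fitm1 the lowest library with them, KO liver A at 6.26 CPM, was above WT liver E at 1.08 and KO liver F at 0.626 CPM. As single libraries were left out, the value ran from 3.71 to 4.21 for Fitm1 and from 0.39 to 1.13 for Plin2, and was lowest at 1.43 for Cidec. The lowest values of Plin2 and Cidec were those without WT liver E, and the highest of Plin2 was that without KO liver F. With the presence of Y-linked transcripts in the model, 7 of 8 genes had a KO minus WT log2 fold change below 0 in liver.

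**Figure D4:**
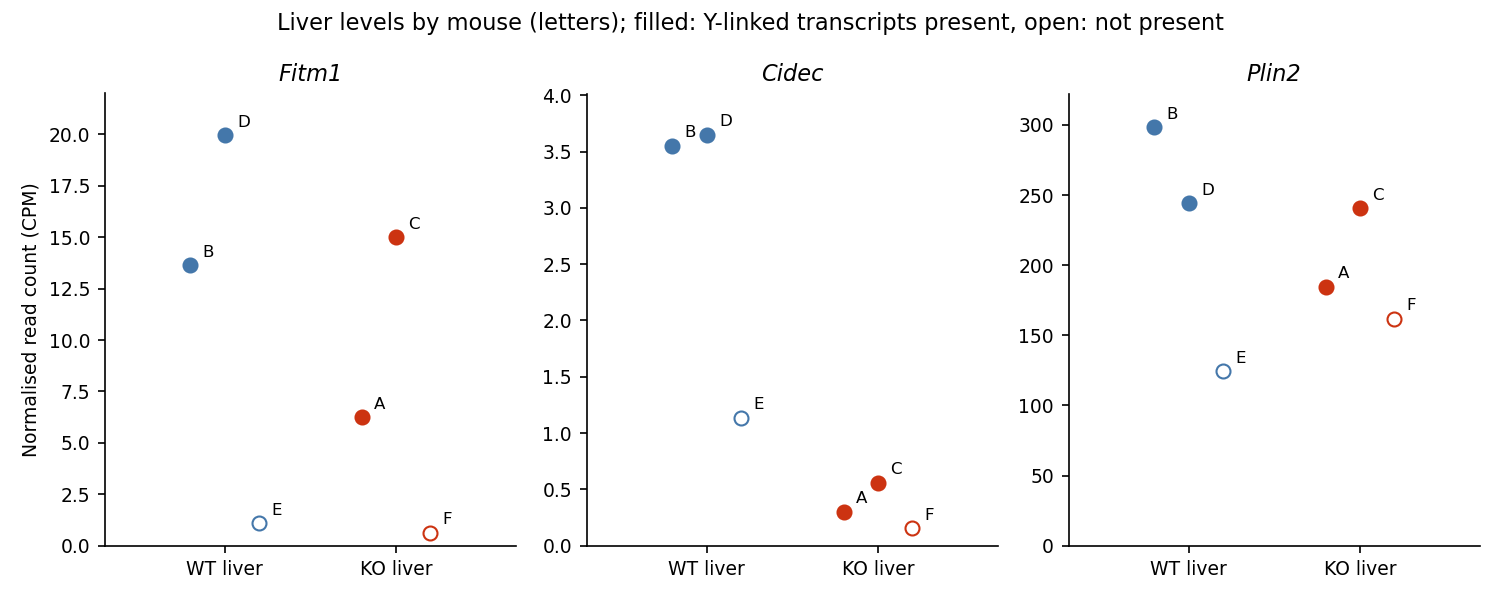
Normalised read counts (CPM, vertical axis from 0) of Fitm1, Cidec and Plin2 in each liver library, by genotype, with the letter of the mouse; filled points are libraries with Y-linked transcripts and open points those without. In each genotype the open point is the lowest, for Fitm1 at 1.08 CPM in WT liver E and 0.626 CPM in KO liver F.

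Over the 6 liver libraries, the genes whose log2 CPM was most like that of Cidec by Pearson correlation were Hsp90b1 (0.992), Gimap9 (0.991), C2cd2l (0.991), Wdr89 (0.989) and Alg12 (0.986). Of 14074 genes, 179 were above 0.9, and the values are a description only. Among the droplet genes the correlation with Cidec was 0.88 for Plin4, 0.84 for G0s2, 0.75 for Cideb, 0.66 for Plin5, 0.60 for Fitm1, 0.54 for Plin2 and -0.90 for Pnpla2. The 6 libraries include both genotypes, so these values also carry the liver difference between KO and WT on which the set was chosen.

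The wider pathway was read from 36 other genes of lipid storage and lipolysis, 35 of which are in the table. Their list, like that of the regulators below, was chosen with earlier results of these data known. Nothing is therefore read from its counts in liver. In liver 33 were tested, 23 with a log2 fold change below 0 and 10 above, the median being -0.13 where that of all genes was -0.0024. None was called by edgeR, with 6 at an unadjusted p under 0.05, 5 of them lower in KO (beside 7.33% of all genes). DESeq2 called 1, Pnpla3. In brain 26 were tested, 14 below 0 and 12 above, with a median of -0.027 where that of all genes was -0.0016, 0 called by either tool and 3 at an unadjusted p under 0.05 (beside 11.0%).

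Pnpla3, a droplet-bound lipase and acyltransferase close in sequence to Pnpla2, had the log2 fold change furthest below 0 of them in liver. It had 2.73, 4.29 and 8.12 CPM in WT livers B, D and E and 0.843, 0.112 and 0.678 CPM in KO livers A, C and F, with no overlap and a log2 fold change of -3.20 (SE 0.63, adjusted p = 0.383). Its adjusted p was 6.80e-05 by DESeq2, 0.0567 with the presence of Y-linked transcripts in the model and 1.05e-11 without a filter on low counts, and it reached 0.985 without WT liver B. The counts were 14, 2 and 13 in KO livers A, C and F and 53, 67 and 143 in WT livers B, D and E. Since the list was chosen with earlier results of these data known, these p-values are no independent support for a difference. Unlike Cidec, Pnpla3 was highest in WT liver E. In brain its KO and WT libraries overlapped, at 3.23 to 3.60 and 1.86 to 4.21 CPM.

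Acsl3, an acyl-CoA synthetase of nascent droplets, was 44.0 ± 9.40 CPM in KO and 65.7 ± 6.07 CPM in WT liver (SD, n = 3, log2 fold change -0.58, SE 0.17, adjusted p = 0.463). Plin3, a perilipin found in most cells, was 28.3 ± 0.833 and 37.0 ± 4.23 CPM (-0.39, SE 0.13, adjusted p = 0.498). Cd36, a fatty acid transporter, had 15.5, 21.2 and 45.2 CPM in KO livers A, C and F and 50.4, 55.1 and 61.5 CPM in WT livers B, D and E. Of the 33 genes, 6 were lower in every KO liver than in every WT liver, namely Pnpla3, Acsl3, Plin3, Cd36, Fabp4 and Aadac, beside 6.44% of all genes, and none passed the edgeR test. Nothing is read from this count, since the list was chosen with earlier results of these data known.

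Lpl, lipoprotein lipase, had the only log2 fold change above 0 with an unadjusted p under 0.05, at 29.9, 15.7 and 8.34 CPM in KO livers A, C and F and 7.52 to 9.86 CPM in WT liver (1.07, SE 0.44, adjusted p = 0.676), so KO liver F overlapped with WT. Lipc, hepatic lipase, was at 0.24 (SE 0.20) and Faf2, a droplet-associated degradation factor, at 0.15 (SE 0.14) on the log2 scale. In brain Plin3 (-0.57, SE 0.21, adjusted p = 0.399), Gpat4 (-0.34, SE 0.13, adjusted p = 0.411), a glycerol phosphate acyltransferase, and Aup1 (-0.38, SE 0.15, adjusted p = 0.420), a droplet-bound partner of ubiquitin enzymes, were lower in every KO library without being called. Acsl3 (0.31, SE 0.17), Mgll (0.20, SE 0.16), monoglyceride lipase, and Lpl (0.30, SE 0.24) had the smallest p-values among those above 0 in brain, all overlapping.

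**Figure D5:**
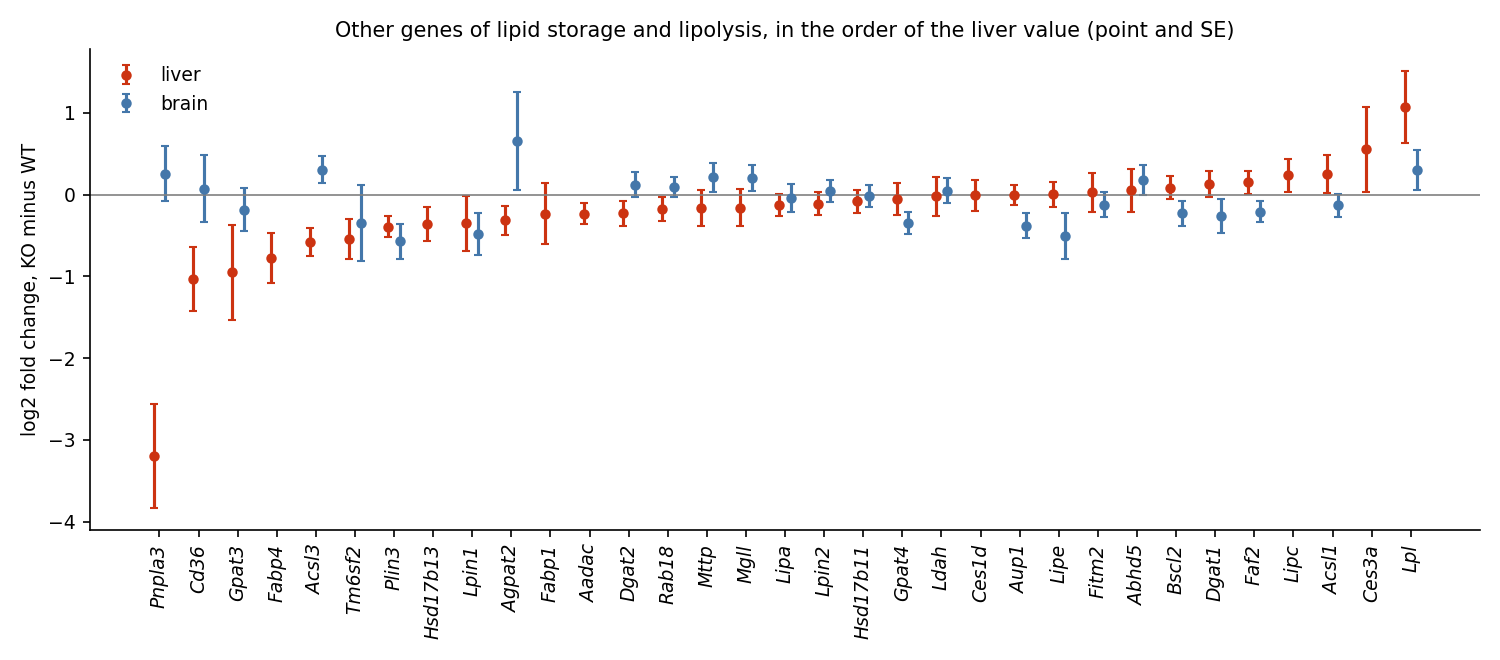
The log2 fold change of KO minus WT (vertical axis, points with SE) of 33 other genes of lipid storage and lipolysis, ordered by the liver value (red), with the brain value (blue) where the gene was tested. Pnpla3 at -3.20 stands lowest in liver and Lpl at 1.07 highest.

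Of 17 transcription factors and coregulators known to act on droplet genes, 17 were tested in liver, 10 with a log2 fold change below 0 (median -0.12, that of all genes -0.0024), none called by edgeR or DESeq2 and 1 at an unadjusted p under 0.05, beside 7.33% of all genes. That gene was Srebf1, the factor of fatty acid synthesis, at 230 ± 22.0 CPM in KO and 314 ± 72.3 CPM in WT liver (SD, n = 3, log2 fold change -0.45, SE 0.18, adjusted p = 0.656). Hif1a (-0.20, SE 0.12) and Esrra (-0.26, SE 0.17) had the next smallest p-values below 0, and Foxo1 (0.21, SE 0.16), Epas1 (0.21, SE 0.16) and Rxra (0.18, SE 0.14) above 0. In brain 16 were tested, 12 below 0 (median -0.19, that of all genes -0.0016), none called by edgeR or DESeq2 and 1 at an unadjusted p under 0.05, beside 11.0% of all genes. That gene was Pparg, which drives droplet genes in fat. It had 6.67, 4.53 and 5.54 CPM in KO brains A, C and F and 2.96, 3.81 and 3.57 CPM in WT brains B, D and E, higher in every KO library (log2 fold change 0.69, SE 0.25, adjusted p = 0.394). Esrra (-0.42, SE 0.20), Ppargc1b (-0.49, SE 0.26) and Nr1h3 (-0.42, SE 0.26) had the smallest p-values below 0 in brain, and Ppargc1a (0.18, SE 0.13) and Cebpa (0.14, SE 0.21) the next smallest above 0.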

How the data were processed

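Total RNA libraries of liver and brain were prepared with a stranded kit and read from a single end. The authors trimmed reads with Trimmomatic, aligned them to mm10 with STAR 2.7.3a and summed exonic reads per gene with featureCounts, set to the reverse strand. Raw counts per gene, not normalised, and exon lengths were deposited.

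The members and gene lists were chosen with earlier results of these data known. Genes were named by rule: all members, Mettl5, list genes that were called, of which edgeR gave none, and those with the 3 smallest p-values in each direction, the 5 genes most like Cidec, and members of marker lists whose sums did not overlap. Other names, such as Cd36, Fabp4 and Aadac, were chosen after their values were seen.

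Each comparison was fitted on its own 6 libraries with edgeR 4.0.16 in R 4.3.3 (TMM, filterByExpr, robust quasi-likelihood F test, Benjamini-Hochberg adjustment over all genes tested, call at an adjusted p under 0.1). CPM are counts per 1e6 of the TMM-scaled library size within a tissue. SE come from the F statistic. Lower bounds take 3 counts in each library of the lower group and TMM scaling over all 12 libraries. DESeq2 1.42.0 without the count filter, other scaling, no filter, mitochondrial genes left out, all 12 libraries in 1 fit, Y-linked transcripts as a covariate and omission of each library were alternatives. The scripts were tested on simulated data. Counting error limits low genes, and p-values between genotypes measure the spread between separate mice. The p-values given between organs come from fits that leave out the pairing of liver and brain by mouse.

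The labels pair liver and brain by the letter of the mouse. Deviations from group means in the liver and brain library of a mouse had Pearson correlations from -0.0389 to 0.140 over 12574 genes, and mouse was used as a replicate block in an alternative fit of the tissue comparisons. Fold changes, p-values and pathway results of the study were not used.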

Additional observations from a re-analysis of the deposited data

Results flagged for a closer look

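Pnpla2, the gene of adipose triglyceride lipase, lay in opposite directions in the organs of the same mice. Every KO liver was above every WT liver, with a log2 fold change of 0.2464, and every KO brain was below every WT brain, with a log2 fold change of -0.8269. The liver values belong to the contrast on which the genes were chosen, so the difference between the tissues was not tested. Groups of 3 libraries are too small for a test of single outlying libraries.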

How the results depend on the processing

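The number of droplet genes called between KO and WT brain was 0, and 1 without a filter on low counts (Pnpla2). Between organs, the 5 genes above the filter in both were called higher in liver in both genotypes under every alternative. With mouse as a replicate block these 5 calls did not change (log2 fold change of Plin4 2.77 in WT and 2.15 in KO mice). Of the other genes of lipid storage, 0 were called in liver, but 1 by DESeq2, 1 with Y-linked transcripts as a covariate (Pnpla3 both times) and 4 without a filter (Pnpla3, Plin1, Acsl3, Lpl). Plin1 had 17 counts in WT liver E and 0 in every other liver, so its call rests on that library alone. Over the whole table, liver had 0 calls in the edgeR fit, 171 by DESeq2, 443 without a filter, 82 with the Y-linked covariate and 87 without WT liver D. Brain had 11, 267 by DESeq2 and 1000 without a filter, and as libraries were left out 2 (without WT brain E) to 23 (without KO brain C), with 3 without WT brain B, 4 without WT brain D, 5 without KO brain F and 6 without KO brain A. DESeq2 was run without the count filter. The droplet genes with a liver log2 fold change below 0 numbered 6 to 9, where 9 counts Cidea and Hilpda, below the filter in liver alone but fitted without a filter and over all 12 libraries. As libraries were left out, the log2 fold change of Cideb in brain ran from -0.61 to 0.16 and that of Cidea between WT tissues from -3.97 to 0.014, each turning above 0 without WT brain D. The causes of these changes were not tested. Depth limits Cidec in KO liver (3 to 10 counts), Cidea in liver, Hilpda and Plin5 in brain.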

Other observations

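Some of these genes share sequence or neighbourhood with other genes. Cideb shares 1136 of its 1488 exon bases with Nop9 on the opposite strand, and the counting used strand. In brain, Nop9 had 140 to 206 counts per library where Cideb had 18 to 68, and the part of reads on the wrong strand was not tested. In liver Cideb had 1555 to 2196 counts against 284 to 392 for Nop9. Fitm1 shares 109 of 971 exon bases with Gm15932, which had at most 3 counts in any library, and Plin4 shares 17 of 6350 with Hdgfl2. Plin4 and Plin5 are 1797 bases apart on chromosome 17, and their liver log2 fold changes were -1.17 and -0.26. Cideb and Fitm1 are 177095 bases apart on chromosome 14, with -0.11 and -0.66.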
